A study of Mus musculus with 29 samples.

Results

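Solute carriers are the membrane proteins that move amino acids, sugars, ions, metals and metabolites across the membranes of a cell, and 159 of their genes were followed here through cytosol and membrane fractions of C2C12 cells. The members were the gene symbols made of Slc and a number in the deposited table of poly(A) sites, without Slc35b2, that held at least 260 reads over the 26 3' end libraries. They were 159 of the 15954 genes with at least 1 read, and 135 further Slc symbols had reads but fell under that minimum. Just inside it lay Slc39a8 with 262 reads, Slc17a5 with 267 and Slc22a5 with 269, and just outside it Slc35f5 with 248, Slc26a11 with 243 and Slc22a15 with 243. The members fell into 32 genes of the Slc25 family, 123 other transporters and 4 genes that carry a carrier's name but code for no transporter.

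Most carriers of the cell surface, lysosome and Golgi apparatus are made by ribosomes bound to the endoplasmic reticulum (ER), because their first membrane span is recognised as it leaves the ribosome and the whole complex is brought to the ER. The Slc25 family works in the inner membrane of mitochondria, apart from a few relatives in peroxisomes and the outer mitochondrial membrane. Its proteins have no such ER signal and are taken up through the import pores of mitochondria. Both kinds are proteins with many membrane spans, so that the family compares mRNAs of membrane proteins with different destinations.

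C2C12 is a mouse myoblast line that leaves the cell cycle and forms muscle cells when serum is lowered. Cells were proliferating (P, medium with 10% fetal bovine serum) or differentiating (D), and cytosol and membrane fractions of each were parted on gradients into polysomes, mRNAs with several ribosomes, and monosomes, with 2 libraries for each of the 8 combinations. The labels list 2% horse serum for the D polysome libraries but 10% fetal bovine serum for the D monosome libraries, so that state and stated serum do not run together in the monosome libraries. Proliferating cells also gave 8 libraries of cytosol and membrane, 1 each, from untreated cells and after 0, 30 or 60 min of puromycin at 100 µg/ml, a drug that releases nascent chains from ribosomes. A cytosol and a membrane library of whole fractions and RNA-seq libraries of a cytosol, a membrane and an insoluble fraction, 1 each, completed the set.

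The gradient libraries held 2964852 to 8237846 reads, the puromycin libraries 5506600 to 11631401 and the RNA-seq libraries 4283571 to 6521107. Levels below are counts per 1000000 reads of a library (CPM). A 3' end library reads each transcript once at its poly(A) tail, whatever its length, so that CPM can be set side by side between genes. The labels do not say that replicates were separate cultures, and p-values then measure only the spread between these libraries. The 9 markers of muscle differentiation such as Myog and Ckm summed to 31 to 262 CPM in P polysome libraries and to 2330 to 12880 CPM in D polysome libraries, while the 10 markers of fibroblasts, fat, bone and blood cells summed to at most 35.1 CPM in any group.

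The carriers with the highest mean levels over the 26 libraries, cytosol and membrane together, came from both kinds. Slc25a39, the mitochondrial glutathione carrier, led with a mean of 1210 CPM, all of its reads at 1 site on the minus strand of chromosome 11 at position 102264458 (mm9). Slc35e4, a little-studied relative of the nucleotide sugar transporters, averaged 815 CPM and also ended at 1 site; whether reads of a neighbouring gene are among them was not tested. Slc44a2, a choline carrier, averaged 704 CPM, the ER and Golgi zinc transporter Slc39a7 606 CPM, and the mitochondrial phosphate carrier Slc25a3 600.1 CPM. The order differed by fraction, and in P membrane polysomes Slc35e4 (mean 1826 CPM), Slc44a2 (1378) and Slc39a7 (1125) were above Slc25a39 (478). Among amino acid carriers Slc7a5, which exchanges large neutral amino acids at the cell surface, was highest with 119 CPM. Of the 159 members, 70 had over 90% of their reads at a single poly(A) site.

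In whole libraries the division of Slc reads between mitochondrial and other carriers followed the fraction. In P cytosol polysome libraries the 32 Slc25 genes together held 3462 and 2691 CPM and the 123 other transporters 1906 and 2030 CPM. In P membrane polysome libraries the Slc25 sum was 2219 and 1872 CPM and the sum of the others 10956 and 13961 CPM. Thus Slc25 took 61.4% and 54.5% of Slc reads in cytosol polysomes and 16.6% and 11.7% in membrane polysomes, with no overlap. Monosome libraries were closer, with 55.3% and 47.9% in P cytosol and 29.5% and 22.3% in P membrane.

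Membrane was then set against cytosol gene by gene in P cells, as the mean over polysomes and monosomes, with edgeR's quasi-likelihood test over 11176 genes (adjusted p below 0.05 counts as a change). Of the 123 other transporters, 96 were higher in membrane and 0 lower, with a median log2 difference of 2.02, and 108 had an unadjusted p below 0.05. Over all genes 23.2% were higher and 11.5% lower, with a median of 0.17. Of the 32 Slc25 genes, 1 was higher and 4 were lower, with a median of -0.09. With DESeq2's size factors the median of all genes moved to 0.00, those of the others to 1.85 and of Slc25 to -0.28, and all-gene calls went from 2597 higher and 1290 lower to 2231 and 1815. Slc25 then had 0 higher and 5 lower, and the others 91 higher and 0 lower.

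**Figure D1:**
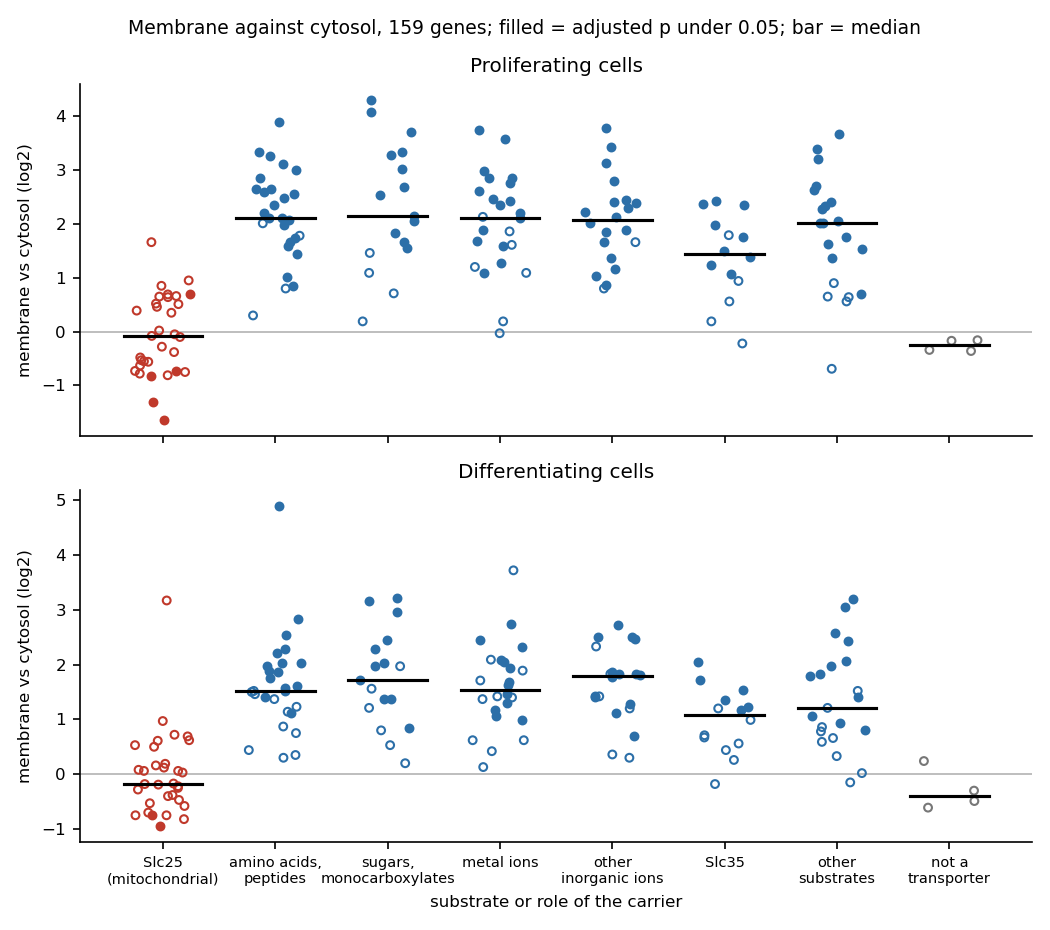
Log2 difference between membrane and cytosol for each of the 159 genes by the substrate or role of the carrier, in proliferating (top) and differentiating cells (bottom). Filled points passed an adjusted p of 0.05, open points did not, and black bars are medians. The Slc25 genes lie around 0 in both states (medians -0.09 and -0.17), while every other substrate class has its median above 1.

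Each substrate class of the other transporters had members higher in membrane and none lower. Classes were set by gene family, so that a member can carry another substrate, as Slc5a5 and Slc5a6 among the sugar carriers. Of 27 genes for amino acids, peptides and related compounds, 23 were higher in membrane, with a median of 2.11. Slc43a1 is counted among the 27, though most of its reads lay on the strand opposite to its annotated gene. Whether they are reads of a neighbouring gene was not tested. Of 17 for sugars, inositol and monocarboxylates 13 were higher (median 2.14), of 24 for metal ions 17 (median 2.12) and of 20 for other inorganic ions 18 (median 2.07). The 21 carriers of other substrates, among them choline, nucleosides and fatty acids, had 16 higher with a median of 2.02. The Slc35 family of nucleotide sugar transporters and their relatives, proteins of the Golgi apparatus and ER, had 9 of 14 higher and a median of 1.44.

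Among amino acid carriers, Slc7a5 had 317 and 231 CPM in membrane polysomes, 178 and 173 in membrane monosomes, 7.91 and 4.93 in cytosol polysomes and 65.4 and 54.6 in cytosol monosomes of P cells. Every membrane library lay above every cytosol library, and the cytosol polysomes were by far the lowest. The log2 difference was 3.26 (SE 0.51, adjusted p = 0.000302, edgeR). Slc1a4, a carrier of alanine, serine and cysteine, ranged from 74.9 to 144 CPM in the 4 membrane libraries and from 6.73 to 10.4 in the 4 cytosol libraries, a log2 difference of 3.34 (SE 0.27, adjusted p = 1.98e-06). Slc1a5, the glutamine carrier, was lower in level, at 20.9 to 33.9 CPM in membrane against 2.08 to 4.13 in cytosol, a log2 difference of 3.12 (SE 0.38, adjusted p = 3.67e-05). Slc3a2 encodes the single-span glycoprotein that pairs with Slc7a5 and brings it to the cell surface. It was less divided, with 77.7, 83.1, 87.0 and 66.1 CPM in membrane against 29.9, 15.9, 33.6 and 20.1 in cytosol, and a log2 difference of 1.44 (SE 0.34, adjusted p = 0.00487).

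For sugars and monocarboxylates the basal glucose transporter Slc2a1 and the lactate transporters Slc16a1 and Slc16a3 stood out. Slc2a1 had 146, 263, 109 and 183 CPM in membrane and 17.4, 14.6, 8.59 and 23.2 in cytosol. Slc16a1 had 127, 135, 75.3 and 70.0 CPM in membrane and 4.13, 3.94, 3.65 and 8.84 in cytosol. For both genes the lowest membrane library held several times the level of the highest cytosol library. The log2 differences were 3.27 (SE 0.41, adjusted p = 4.04e-05) for Slc2a1, 4.07 (SE 0.40, adjusted p = 6.7e-06) for Slc16a1 and 3.34 (SE 0.42, adjusted p = 4.22e-05) for Slc16a3.

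Among metal ion carriers, the abundant Slc39a7 had 949, 1302, 599 and 857 CPM in membrane against 103, 121, 136 and 266 in cytosol, a log2 difference of 2.42 (SE 0.31, adjusted p = 5.36e-05). The cell-surface zinc importer Slc39a6 differed more, by 3.57 (SE 0.30, adjusted p = 2.45e-06). Among other ion carriers the sodium, potassium and chloride cotransporter Slc12a2 differed by 3.42 (SE 0.44, adjusted p = 5.53e-05). Slc12a4, a potassium and chloride cotransporter, had 265, 422, 221 and 310 CPM in membrane and 16.7, 17.7, 144 and 153 in cytosol. Its cytosol polysomes and monosomes lay far apart while its membrane libraries were all high. Slc44a2 differed by 2.70 (SE 0.21, adjusted p = 1.48e-06) and the fatty acid carrier Slc27a4 by 3.39 (SE 0.33, adjusted p = 7.27e-06).

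**Figure D2:**
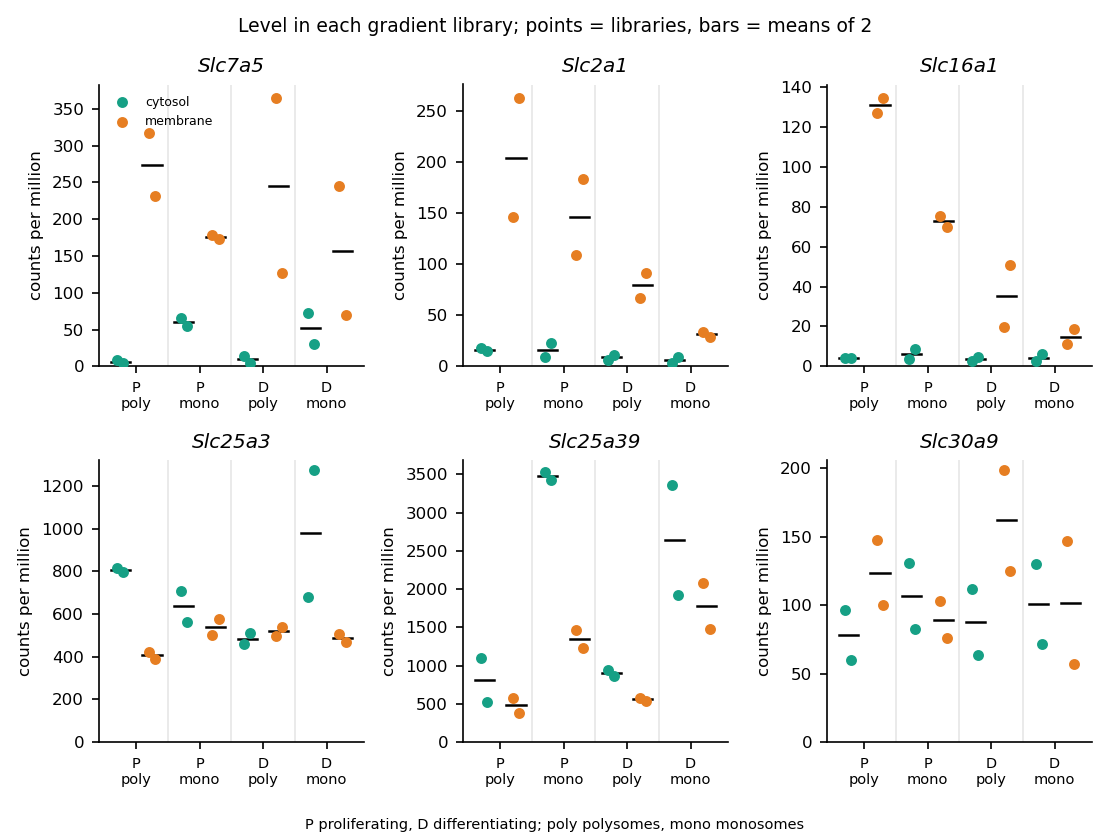
Level in CPM of 6 carriers in each of the 16 gradient libraries, cytosol in green and membrane in orange, with bars at the mean of 2 libraries; P is proliferating and D differentiating. Slc7a5, Slc2a1 and Slc16a1 have the higher mean in membrane in every pair of groups, Slc25a39 has the lower, and Slc25a3 and Slc30a9 overlap in several pairs.

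A few transporters outside the Slc25 family did not lie on the membrane side. The lowest with at least 10 CPM was Slc35a4, with 308, 240, 503 and 325 CPM in membrane and 270, 314, 365 and 407 in cytosol. These ranges overlap fully, and the log2 difference was -0.22 (SE 0.25, adjusted p = 0.531). Slc35a4 is a Golgi relative of the nucleotide sugar transporters whose mRNA also carries an upstream reading frame for a separate small protein. Slc30a9, a zinc transporter of mitochondria, had 147, 99.7, 103 and 75.6 CPM in membrane and 96.7, 59.8, 131 and 82.6 in cytosol, and a log2 difference of -0.03 (SE 0.35, adjusted p = 0.962). In polysomes both membrane libraries lay above both cytosol libraries, and in monosomes the libraries overlapped with the lower mean in membrane. This value turned to 0.16 without P cytosol polysome replicate 1 and to 0.17 without P cytosol monosome replicate 1.

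Next in order came Slc35c2, a Golgi relative of the GDP-fucose transporter, at 0.19 (SE 0.26, adjusted p = 0.615). Its mean hid opposite sides, since cytosol polysomes held 25.3 and 28.6 CPM against 65.4 and 104 in membrane polysomes, while cytosol monosomes held 107 and 189 against 70.6 and 85.9 in membrane monosomes. Under DESeq2's size factors the value was -0.01. Slc35e2 and the lysosomal heme transporter Slc48a1 followed with 0.56 each and did not pass the test. Slc27a1, a fatty acid carrier, differed by 0.70 (SE 0.23, adjusted p = 0.0302), and lost its call under DESeq2's size factors (0.51, adjusted p = 0.0901) and when any of 7 of its 8 libraries was left out, all but P cytosol monosome replicate 2. Slc37a4, which carries glucose 6-phosphate into the ER, stood at 0.71 (SE 0.28, adjusted p = 0.0631). By contrast Slc24a6, the mitochondrial sodium and calcium exchanger, lay with the majority at 1.89 (SE 0.41, adjusted p = 0.00269) on 6.8, 6.84, 11.1 and 7.66 CPM in membrane and 1.72, 0.328, 2.87 and 3.76 in cytosol; it was singled out after its values were seen.

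The count of 4 of 32 Slc25 genes lower in membrane was near the 11.5% of all genes. Slc25a39 had 578, 379, 1459 and 1230 CPM in membrane (polysomes, then monosomes) and 1104, 529, 3527 and 3429 in cytosol. In polysomes 1 membrane value lay above the lower cytosol value, and in monosomes the fractions did not overlap. The log2 difference was -1.30 (SE 0.27, adjusted p = 0.00201). Slc25a3 had 420, 391, 503 and 575 CPM in membrane against 813, 798, 708 and 563 in cytosol, where the polysome libraries did not overlap and the monosome libraries did, and differed by -0.82 (SE 0.23, adjusted p = 0.0154). Without P cytosol monosome replicate 1 its adjusted p was 0.0579. Slc25a23, a calcium-regulated carrier of ATP-magnesium and phosphate, fell by 1.64 on the log2 scale (SE 0.48, adjusted p = 0.0166) and Slc25a26, which brings S-adenosylmethionine into mitochondria, by 0.74 (SE 0.27, adjusted p = 0.0451). Leaving out 1 of 4 libraries for Slc25a23 (both cytosol replicates 1 and both membrane replicates 2) or 1 of 5 for Slc25a26 (all but P cytosol polysome replicate 2 and both membrane monosome libraries) ended their calls, with adjusted p of at most 0.096 and 0.122.

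Slc25a37, mitoferrin, which brings iron into mitochondria, was the 1 Slc25 gene called higher in membrane. Its membrane values were 141, 115, 760 and 342 CPM and its cytosol values 109, 86.1, 169 and 229. Membrane lay above cytosol in polysomes and in monosomes, and the first replicate of membrane monosomes was the highest; the test of a difference between the parts gave no call (-0.59, SE 0.44, adjusted p = 0.507). The log2 difference of 0.69 (SE 0.22, adjusted p = 0.0273) was 0.17 without that library, and 0.51 (adjusted p = 0.0929) with DESeq2's size factors. The call was also lost without either P membrane polysome library, without P cytosol polysome replicate 2 and without P cytosol monosome replicate 1. Slc25a17, the peroxisomal relative, had 0.66 (SE 0.36, adjusted p = 0.171) and Slc25a46, in the outer mitochondrial membrane, -0.05 (SE 0.21, adjusted p = 0.896). The adenine nucleotide carriers Slc25a4 and Slc25a5, which pass ADP and ATP across the inner membrane, stood at -0.75 and -0.63 and the citrate carrier Slc25a1 at -0.78, none past the test with all libraries. Slc25a4 was at 0.00 without P cytosol monosome replicate 1 and at -1.11 without P membrane monosome replicate 1 (adjusted p = 0.103) or P cytosol monosome replicate 2 (adjusted p = 0.0171). Slc25a1 ranged from -0.47 without P cytosol polysome replicate 1 to -1.31 without P membrane monosome replicate 1, and passed the test without that library, P membrane polysome replicate 1 or P cytosol polysome replicate 2 (adjusted p of 0.0206, 0.0169 and 0.038). Slc25a4 and Slc25a5 have close copies, and how reads were shared among them is not given in the sources used here.

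None of the 4 genes that are carriers in name only passed the test. Slc9a3r1 and Slc9a3r2, the NHERF scaffolds that bind ion exchangers from the cytosol, differed by -0.34 (SE 0.28) and -0.17 (SE 0.34), Slc4a1ap by -0.36 (SE 0.23) and Slc7a6os by -0.16 (SE 0.25). Other membrane proteins gave counts for comparison from lists chosen with earlier results known. ABC transporters with membrane spans had 13 of 17 tested genes higher and 0 lower (median 2.06), and P-type ATPases of the cell surface and ER 17 of 22 higher and 0 lower (median 2.69). Bsg, Emb and Nptn, single-span partners of the lactate transporters, were all 3 higher (median 3.12). ABC proteins without spans had 0 of 4 called (median -0.34). The pores and chaperones that import Slc25 proteins had 1 of 14 higher and 6 lower (median -0.63), other mitochondrial channels and carriers 5 of 18 higher and 5 lower (median -0.18), and the ER membrane protein complex, an insertion machine, 3 of 7 higher and 2 lower (median 0.02).

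In D cells the same contrast gave 72 of 123 other transporters higher in membrane and 0 lower, with a median log2 difference of 1.46, where 14.2% of all genes were higher and 5.49% lower. Of the 32 Slc25 genes 0 were higher and 2 lower, with a median of -0.17. These were Slc25a39, at -0.94 (SE 0.27, adjusted p = 0.0244), and Slc25a3, at -0.75 (SE 0.23, adjusted p = 0.0378). Leaving out 1 library ended the Slc25a3 call in 7 of 8 cases, all but D cytosol monosome replicate 1 (log2 -0.95 to -0.47, the last without D cytosol monosome replicate 2). It ended the Slc25a39 call in 5 of 8 (adjusted p 0.0508 to 0.105), namely both D membrane polysome libraries, the first D cytosol library of either part and the second D membrane monosome library. Slc7a5 kept 365, 126, 245 and 69.2 CPM in membrane against 13.7, 4.93, 73.1 and 30.4 in cytosol, where 1 membrane monosome value lay below 1 cytosol monosome value, and differed by 2.84 (SE 0.50, adjusted p = 0.00146). Among carriers of at least 10 CPM the largest difference was 3.16 (SE 0.41, adjusted p = 0.000157) for Slc16a3. Slc7a5 came next, followed by Slc39a6 with 2.74 (SE 0.30, adjusted p = 4.67e-05).

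A test of the difference between the states called no member. The change of the fraction difference with state had a median of -0.51 over the 123 other transporters and 0.05 over Slc25, against -0.08 over all genes. edgeR called 0 of 11176 genes (0%), and DESeq2 called 4 higher and 10 lower, none of them a member. At an unadjusted p below 0.05 there were 13 members, all among the other transporters, with Slc16a1 (-1.78, SE 0.53) and Slc38a1 (-1.35, SE 0.47) as examples. With a term for the replicate number added, edgeR called 10 members. Over the settings tried, up to 81 of all genes were called higher and up to 433 lower.

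The single pairs without replicates gave the same picture of the 2 kinds, as ratios with 0.5 CPM added. In the pair of whole fractions 106 of 123 other transporters were above 1 on the log2 scale, with a median of 2.58, as were 24.5% of all genes, and 2 of 32 Slc25 genes, with a median of -0.49. In RNA-seq, for genes with enough reads and with 1 read added, 89 of 97 other transporters and 0 of 27 Slc25 genes were above 1 (all genes 24.5%), with medians of 2.57 and -0.63. Over the 159 members the gradient and the whole-fraction values had a Pearson correlation of 0.86, and over the 128 members in both sets the gradient and RNA-seq values one of 0.83, as descriptions across genes that share cells and fractions. In the insoluble fraction the other transporters again stood above cytosol, with a median of 2.46, but against the membrane fraction their median was -0.10. Of 27 Slc25 genes 4 (14.8%) were above 1 there against cytosol, where 36.6% of all genes were. They were Slc25a27 (4.65), Slc25a37 (2.80), Slc25a36 (1.59) and Slc25a45 (1.07), all chosen after their values were seen. Slc25a37 had 121 CPM in cytosol, 141 in membrane and 850 in the insoluble RNA-seq library, and Slc25a27 5.21, 8.74 and 143.

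The fraction difference depended on the gradient part. In P polysomes alone 99 of 123 other transporters were higher in membrane (median 3.00) with 19% of all genes higher and 5.17% lower, and in P monosomes alone 25 were higher and 1 lower (median 1.04) with 9.7% of all genes higher and 6.41% lower. For Slc25 the counts were 0 higher and 1 lower in polysomes (median -0.25) and 2 higher and 2 lower in monosomes (median -0.11). In a test of the difference between the parts, 34 of 123 other transporters and 0 of 32 Slc25 genes had a larger membrane excess in polysomes than in monosomes, as had 6.19% of all genes, and 0 members had a smaller one, as had 1.1% of all genes. At an unadjusted p below 0.05 there were 66 of the others and 0 of Slc25. The medians of this difference were 1.83, -0.36 and, for all genes, 0.11. The count of 34 was 19 and 17 without P cytosol polysome replicate 1 or 2, 17 without P membrane polysome replicate 2, 12 without P membrane monosome replicate 1 and 21 without P cytosol monosome replicate 2.

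The 2 fractions were then each compared between polysomes and monosomes. In P cytosol 41 of 123 other transporters were lower in polysomes than in monosomes and 0 higher (median -1.27), where 12.8% of all genes were lower and 11.5% higher. In P membrane 0 of 123 were called (21 at an unadjusted p below 0.05, and 1 by DESeq2), with a median of 0.63. Over the settings tried, among them a term for the replicate number, 0 to 41 were higher there and 0 to 3 lower. All genes ranged from 0 to 1880 higher and 0 to 698 lower. The 41 carriers lower in P cytosol polysomes comprised 10 of 20 of other inorganic ions, 9 of 27 of amino acids and 7 of 14 of the Slc35 family. The rest were 6 of 21 of other substrates, 5 of 17 of sugars and 4 of 24 of metal ions. Without P cytosol polysome replicate 2 the count over all members fell from 50 to 28.

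Slc35e1, another relative of the nucleotide sugar transporters, showed the pattern at high level. Its cytosol polysomes held 56.1 and 91.5 CPM and its cytosol monosomes 633 and 1269, while membrane polysomes held 566 and 909 and membrane monosomes 454 and 614. Only the cytosol polysomes were low, and the cytosol monosomes reached the level of the membrane libraries. The polysome to monosome difference in cytosol was -3.75 (SE 0.46, adjusted p = 0.000256), and the difference between the fractions in this respect 4.58 (SE 0.61, adjusted p = 0.000953). Slc35d2, a transporter of UDP-sugars, differed by -4.01 in cytosol (SE 0.49, adjusted p = 0.000256) on 1.55 and 0.657 CPM in polysomes against 19.0 and 15.2 in monosomes. Slc12a4 differed by -3.18 (SE 0.37, adjusted p = 0.000236) and the lysosomal histidine and peptide carrier Slc15a4 by -2.78 (SE 0.49, adjusted p = 0.00173). Slc7a5 differed by -3.30 (SE 0.74, adjusted p = 0.00683), and was not called without P cytosol polysome replicate 2 (adjusted p = 0.0695). Not all membrane-side carriers did so, since Slc2a1 differed by -0.05 (SE 0.54) and Slc1a5 by 0.40 (SE 0.57) in cytosol.

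**Figure D3:**
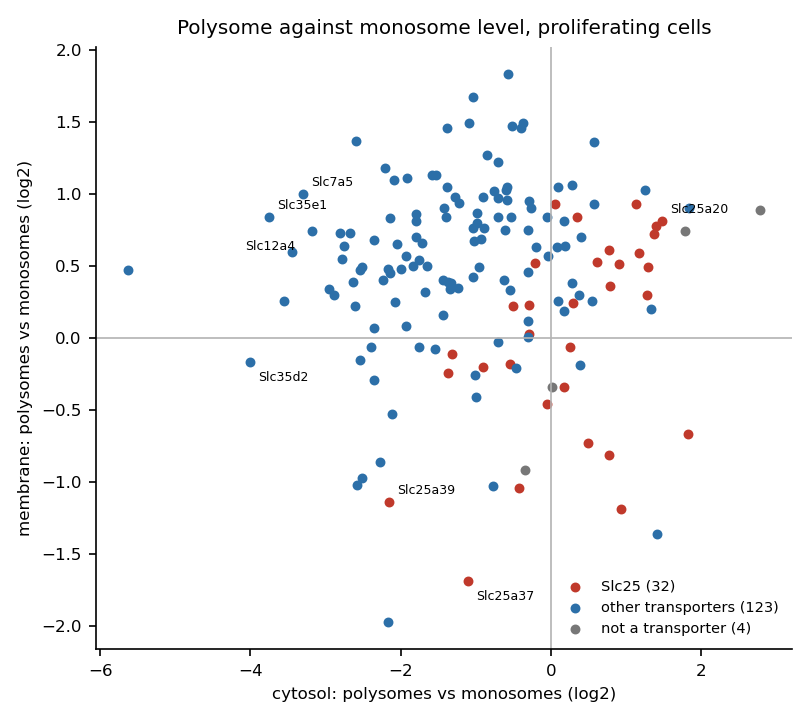
Log2 difference between polysomes and monosomes in cytosol (horizontal) and in membrane (vertical) of proliferating cells, 1 point per gene. Most of the 123 other transporters (blue) lie left of 0 and slightly above 0, with medians of -1.27 and 0.63, while the 32 Slc25 genes (red) spread around 0 with medians of 0.32 and 0.23.

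Among the 32 Slc25 genes 4 were higher and 3 lower in cytosol polysomes, near the shares of all genes (11.5% and 12.8%). Slc25a11, which exchanges oxoglutarate and malate, had 89.98 and 79.6 CPM in cytosol polysomes and 34.9 and 30.7 in monosomes, a difference of 1.30 (SE 0.30, adjusted p = 0.00731). The acylcarnitine carrier Slc25a20 differed by 1.48 (SE 0.44, adjusted p = 0.026), Slc25a5 by 1.37 (SE 0.44, adjusted p = 0.0384) and the ATP-magnesium carrier Slc25a25 by 1.28 (SE 0.35, adjusted p = 0.0191). Leaving out 1 library brought the adjusted p of these to at most 0.0583, 0.19, 0.219 and 0.119 in turn. The call was lost without P cytosol monosome replicate 2 for Slc25a11, without any library but P cytosol monosome replicate 1 for Slc25a20 (0.94 without P cytosol monosome replicate 2 and 2.34 without replicate 1), without any library but P cytosol polysome replicate 1 for Slc25a25 and without each of the 4 for Slc25a5. Slc25a39 ran the other way, from 1104 and 529 CPM in cytosol polysomes to 3527 and 3429 in monosomes, a difference of -2.16 (SE 0.39, adjusted p = 0.0018). The 2 NHERF scaffolds stood with the polysome side, Slc9a3r2 by 2.79 (SE 0.51, adjusted p = 0.00212) and Slc9a3r1 by 1.78 (SE 0.41, adjusted p = 0.00778, but 0.0644 without P cytosol monosome replicate 1).

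D cells gave a like division in cytosol, with 30 of 123 other transporters lower in polysomes and 1, Slc27a1, higher (median -0.99), where 11.3% of all genes were lower and 12.6% higher. Slc25 had 4 higher and 2 lower (median 0.34), and 2 higher and 5 lower with DESeq2's size factors. The count over all members was 39, and 23 without D cytosol polysome replicate 1. Slc35e1 again held little in cytosol polysomes, 52.6 and 66.4 CPM against 499 and 380 in monosomes, and differed by -3.20 (SE 0.45, adjusted p = 0.000455). In D membrane 4 other transporters were higher in polysomes and 0 lower, where 2.05% of all genes were higher and 1.91% lower. They were Slc39a11 (2.13), Slc27a4 (1.90), Slc39a7 (1.64) and Slc1a4 (1.59), with adjusted p from 0.0142 to 0.0497. Slc25a39 was lower (-1.69, adjusted p = 0.0309). These 5 became 1 or 0 when any 1 of the 4 D membrane libraries was left out. In P membrane Slc25a37 was the 1 member called, at -1.69 (SE 0.32, adjusted p = 0.0337), where 0.796% of all genes were called. Its call was lost without either P membrane polysome library or P membrane monosome replicate 1.

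In the single puromycin pairs the fractions lay closer together after exposure. In untreated cells the 123 other transporters had a median log2 ratio of membrane to cytosol of 2.51, and at 0 min 2.84, while at 30 min it was 0.58 and at 60 min 0.48. The Slc25 medians were -0.31, -0.40, -0.03 and 0.03 at the same points. The number of other transporters above 1 went from 106 and 116 to 30 and 27, and the share of all genes above 1 from 25.3% and 26.7% to 19.3% and 19.1%. Summed over genes, the other transporters held 2412 and 1787 CPM in cytosol without exposure and 5776 and 6082 CPM at 30 and 60 min, while in membrane they held 13939 and 12453 CPM and then 9419 and 9235.

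**Figure D4:**
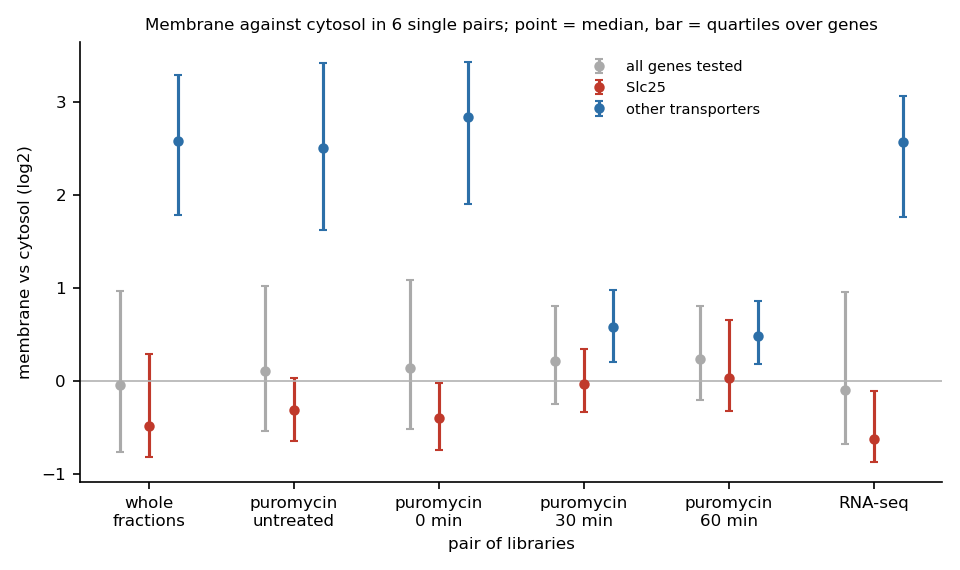
Log2 ratio of membrane to cytosol in 6 pairs of single libraries, as the median (point) and quartiles (bars) over all genes, the Slc25 genes and the other transporters. The other transporters stand above 2 in the whole, untreated, 0 min and RNA-seq pairs and near 0.5 at 30 and 60 min of puromycin, while the Slc25 genes stay near or under 0.

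Slc2a1 is one example. Its cytosol values were 9.44 CPM untreated, 6.48 at 0 min, 93.6 at 30 min and 86.8 at 60 min, and its membrane values 187, 118, 89.6 and 89.3. From 30 min on the fractions were level. Slc7a5 went from 9.81 and 11.7 CPM in cytosol to 64.6 and 76.0, and from 245 and 182 in membrane to 88.9 and 81.7, so that cytosol stayed just below. Slc44a2 went from 124 and 79.7 CPM in cytosol to 730 and 804 and kept 1893, 1323, 1352 and 1385 in membrane. In that gene the cytosol level was higher after exposure, while the membrane level at 30 and 60 min was within the range of the unexposed pair. Some carriers kept part of the difference: Slc38a10 had 45.6 and 41.2 CPM in membrane at 30 and 60 min against 12.1 and 13.3 in cytosol, and Slc4a2, the chloride and bicarbonate exchanger, 194 and 205 against 78.3 and 69.7.

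The Slc25 genes gave other patterns. Slc25a3 had 899, 654, 416 and 498 CPM in cytosol and 525, 436, 466 and 482 in membrane, so that the cytosol excess of the unexposed pairs was gone at 30 and 60 min. Slc25a39 went from 986 and 1073 CPM in cytosol to 670 and 751, and from 599 and 654 in membrane to 691 and 640. Slc25a37 had 157 and 191 CPM in membrane without exposure and 293 and 350 with it, against 73.2, 95.8, 78.5 and 105 in cytosol. Its membrane excess was there at all 4 points and was larger after exposure. Slc25a25 reached 57.6 CPM in cytosol and 112 in membrane at 60 min, from 18.6 to 25.5 in the 4 unexposed libraries.

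In a fit with a term for each pair, the fraction difference at 0 min was above 0 for 104 of 119 other transporters tested and below for 0 (median 2.73), against 25.8% and 21.4% of the 9919 genes tested. Of 31 Slc25 genes tested 2 were above and 7 below (median -0.45), among them Slc25a5 (-1.26, SE 0.24, adjusted p = 0.00956), Slc25a4 (-1.16, SE 0.19, adjusted p = 0.00712) and Slc25a1 (-1.05, SE 0.18, adjusted p = 0.00789). The count over all members, 114, was 0 without the untreated pair or without the 0 min pair and 130 and 128 without the 30 or the 60 min pair. The change with exposure was fitted as a straight line in minutes, with untreated cells taken as 0 min. Per 30 min it had a median of -1.35 for the others and 0.23 for Slc25, against 0.11 for all genes. The single-pair medians of the others were 2.84, 0.58 and 0.48 at 0, 30 and 60 min, a course that a line follows poorly. edgeR called 0 members and 0% of all genes for this slope, which does not show that the ratio was unchanged. At an unadjusted p below 0.05 there were 81 of the others and 2 Slc25 genes, with no share of all genes given. DESeq2 called 65 of the others lower and 0 Slc25 genes. For this change edgeR called 87 members without the 30 min pair and 94 without the 60 min pair. Setting the exposed pairs against the unexposed ones instead, edgeR called 98 of 119 others lower and 1 higher, and 6 of 31 Slc25 genes higher and 0 lower. Of all genes 19% were higher and 20.5% lower there. Calls over all genes also moved with the setting. They ranged from 0 to 3222 higher and 0 to 3036 lower for the fraction difference. For its change with exposure they ranged from 0 to 1880 higher and 0 to 2031 lower.

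Between D and P cells 55 members differed, where 35.5% of all genes did, of which 14 were higher and 41 lower in D than in P cells over both fractions and gradient parts. Among the 123 other transporters 10 were higher and 35 lower (median -0.42), and among the 32 Slc25 genes 3 higher and 5 lower (median 0.01), where 16.3% of all genes were higher and 19.2% lower (median -0.09). In bulk libraries fewer cells of a kind and less RNA per cell cannot be told apart. The lower genes were spread over the classes: 9 of 24 carriers of metal ions, 7 of 27 of amino acids, 7 of 17 of sugars and monocarboxylates, 7 of 21 of other substrates, 4 of 20 of other inorganic ions and 1 of 14 of the Slc35 family. Polysomes alone gave 19 called members (17.5% of all genes) and monosomes alone, where the labels give the same serum for both states, 31 (20.2%).

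Slc2a6, a lysosomal relative of the glucose transporters, rose most among carriers of at least 10 CPM. It had 0 CPM in both P cytosol polysome libraries, 1.3 and 0.884 in P cytosol monosomes and 2.43 to 4.72 in the 4 P membrane libraries. In D cells it had 14.1 and 3.4 CPM in cytosol polysomes, 62.1 and 9.44 in cytosol monosomes, 138 and 28.3 in membrane polysomes and 140 and 40.1 in membrane monosomes. Within each fraction and part the D libraries were all above the P libraries; in every D group the first replicate was far above the second. The log2 change was 5.90 (SE 0.70, adjusted p = 7.6e-05).

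Slc4a3, an exchanger of chloride and bicarbonate known from muscle and nerve, had 2.3 to 26.1 CPM in the 8 P libraries and 12.9 to 149 in the 8 D libraries, and rose by 3.08 on the log2 scale (SE 0.47, adjusted p = 0.000332). Slc40a1, the iron exporter ferroportin, had 0.657 to 12.9 CPM in P and 1.2 to 86.8 in D libraries, with the highest values in D monosomes, and rose by 2.67 (SE 0.54, adjusted p = 0.0022). For Slc4a3 every D library was above the P libraries of the same fraction and part, while for Slc40a1 this held in monosomes and the polysome libraries of the states overlapped. Slc25a23 rose by 1.69 (SE 0.33, adjusted p = 0.00162), from 2.57 to 33.3 CPM in P to 11.7 to 49.3 in D libraries, and Slc25a20 by 0.80 (SE 0.21, adjusted p = 0.0103). Of the NHERF scaffolds Slc9a3r2 rose by 1.35 (SE 0.24, adjusted p = 0.000872) and Slc9a3r1 fell by 1.11 (SE 0.21, adjusted p = 0.00115).

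**Figure D5:**
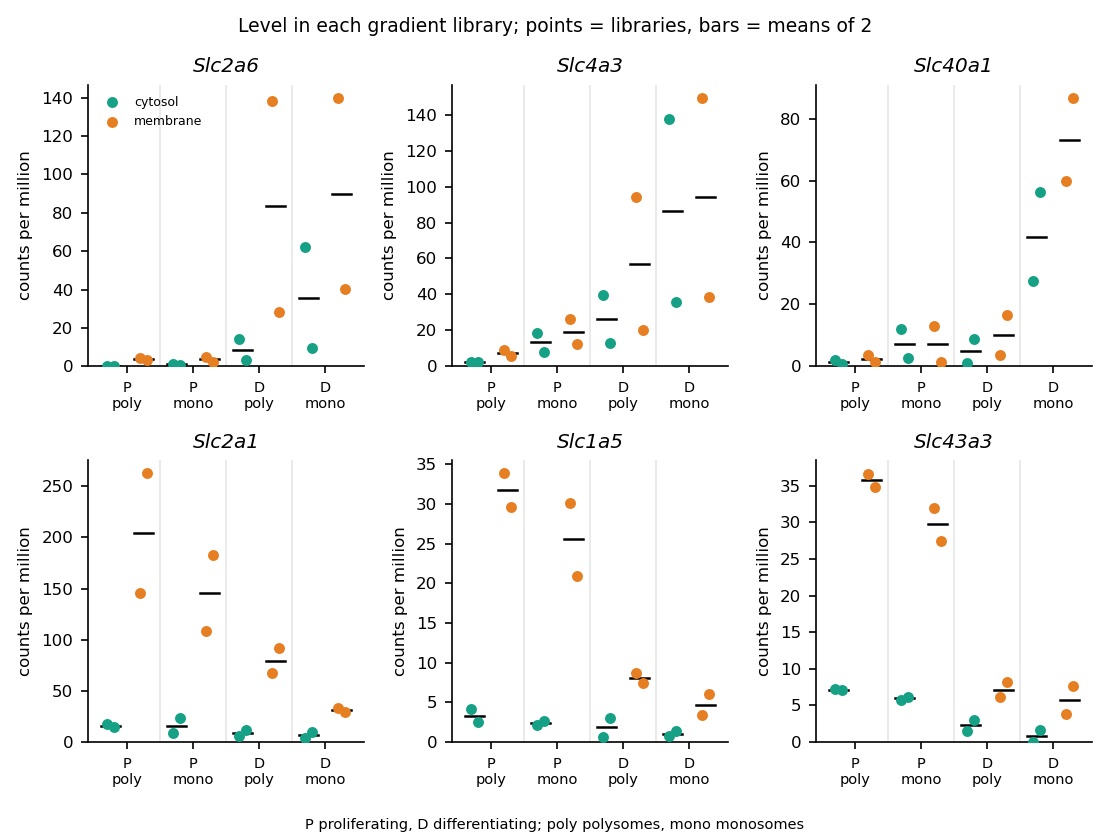
Level in CPM of 6 carriers in each of the 16 gradient libraries, cytosol in green and membrane in orange, with bars at the mean of 2 libraries; P is proliferating and D differentiating. Slc2a6, Slc4a3 and Slc40a1 are higher in D, with the 2 libraries of a D group often far apart, and Slc2a1, Slc1a5 and Slc43a3 are lower in D.

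The genes that fell included carriers of glucose, glutamine and folate at the cell surface. Slc2a1 had 146, 263, 109 and 183 CPM in P membrane and 67.2, 91.6, 33.7 and 28.9 in D membrane, with no overlap, and fell by 1.27 (SE 0.28, adjusted p = 0.00315). Slc1a5 had 33.9, 29.6, 30.2 and 20.9 CPM in P membrane and 8.71, 7.49, 3.35 and 6.1 in D membrane, again with no overlap, and fell by 1.39 (SE 0.28, adjusted p = 0.00205). Slc43a3, a purine base carrier that is counted here with the amino acid carriers of its family, fell by 2.11 (SE 0.32, adjusted p = 0.000253), from 27.5 to 36.7 CPM in P membrane to 3.83 to 8.22 in D membrane. Without D cytosol monosome replicate 2 it fell by 3.50. The folate carrier Slc19a1 fell by 1.90 (SE 0.43, adjusted p = 0.00412) and the glutamine carrier Slc38a1 by 1.50 (SE 0.24, adjusted p = 0.000336). The lactate transporter Slc16a1 fell by 1.05 (SE 0.27, adjusted p = 0.00819), whereas Slc16a3 stood at 0.48 (SE 0.28, adjusted p = 0.21). Slc7a5 stood at 0.22 (SE 0.34, adjusted p = 0.643). Slc16a11 and Slc16a13, monocarboxylate carriers that lie next to each other on opposite strands, fell by 1.53 (SE 0.40, adjusted p = 0.00989) and 1.97 (SE 0.24, adjusted p = 5.23e-05). Without the filter on low counts Slc16a11 (-1.46) was not called.

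Use of alternative poly(A) sites could be tested for 67 members with a pair of sites, among 4554 genes. In none of the 3 contrasts was a member called by edgeR, but with a term for the replicate number added some were in each. On simulated counts the site contrast of membrane against cytosol in P cells recovered 38% of pairs changed by 1 on the log2 scale. The spread between libraries was set by hand in that simulation and not taken from these data, and same-numbered libraries shared no deviation. The share recovered among the members can therefore differ. At an adjusted p below 0.05, membrane against cytosol called 0.527% of all genes in P cells and 0.022% in D cells, and D against P cells 1.52%. At an unadjusted p below 0.05, a looser threshold, 8, 3 and 9 of the 67 members passed in turn. The share of all genes at that looser threshold is not given here, so these counts cannot be set against the percentages. The median shift toward the distal site in membrane was 0.15 on the log2 scale for 14 Slc25 genes and 0.04 for 51 other transporters in P cells, and 0.15 for all genes. Without D cytosol polysome replicate 1 there was 1 call in D against P cells, Slc39a9 (2.01). DESeq2 was not run on site pairs.

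The lowest p in P membrane against cytosol belonged to Slc25a43, with a distal share of 69.8% in membrane and 34.4% in cytosol on a mean of 33.3 reads (2.20, SE 0.61, adjusted p = 0.14); it was chosen after its values were seen. The pairs described next had a mean of at least 50 reads. In Slc4a3 the distal of 2 sites on chromosome 1, plus strand, at 75555658 and 75557936 (mm9) took 14.6% of the pair's reads in D and 8.11% in P libraries, a log2 shift of 1.57 (SE 0.46, adjusted p = 0.11). In Slc39a9, a zinc transporter of the Golgi apparatus, the distal share was 79.5% in D and 58.5% in P (1.47, SE 0.45, adjusted p = 0.118). Slc1a4 (-1.72, adjusted p = 0.12), Slc25a17 (0.73, adjusted p = 0.136) and the ornithine carrier Slc25a15 (2.13, adjusted p = 0.142) followed in D against P cells. The 2 sites lay only 30 nt apart in Slc1a4, against 466 nt in Slc25a17 and 1143 nt in Slc25a15. The distal share of Slc1a4 was 6.08% in D and 5.59% in P, against the sign of its fitted shift. Those of Slc25a17 (95.9% and 93.4%) and Slc25a15 (96.6% and 88.7%) went with theirs. In Slc11a2, the iron and manganese importer whose messages end in alternative exons with or without an iron-responsive element, the sites on chromosome 15, minus strand, at 100225394 and 100223089 lay 2305 nt apart. Its distal share in D cells was 39% in membrane and 16.4% in cytosol (1.72, SE 0.58, adjusted p = 0.691), and the shift was 2.68 without D cytosol polysome replicate 2 and 1.18 without D cytosol polysome replicate 1. In Slc35a4 it was 91.5% in membrane and 87.6% in cytosol of P cells (0.61, SE 0.25, adjusted p = 0.427). In the RNA-seq pair, without replicates, the alternative part of the 3' UTR was relatively higher in membrane in 34 of 38 members measured (median 0.54) and in 2424 of 3062 genes (median 0.47).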

How the data were processed

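The deposited 3' end table holds, per the file headers, a count of reads at each poly(A) site in 26 libraries, and the deposited RNA-seq table a count of reads for the constitutive and alternative parts of 3' UTRs in 3 libraries. The submitters' processing notes name cutadapt, Bowtie2, STAR 2.5.2 and the mouse build mm9, without roles. Site counts were summed per gene symbol after leaving out 651 positions listed under more than 1 symbol (0.262% of reads). CPM are counts per 1000000 of each library's total.

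Contrasts were fitted to the counts of all genes with edgeR 4.0.16 in R 4.3.3 (TMM scaling, filterByExpr, quasi-likelihood test, Benjamini-Hochberg adjustment, threshold 0.05), the 16 gradient libraries in 1 fit of 8 groups and the 8 puromycin libraries in another with a term for each pair. Site pairs needed a mean of at least 10 reads, at least 5% of reads at the rarer site and at most 10 kb between sites. On simulated counts the membrane contrast recovered 9.09% of genes changed by 1 and 69.7% of those changed by 2 on the log2 scale, over 11176 genes. Far fewer genes were changed in the simulation than were called in the data. The adjustment of p was therefore stricter there, and recovery in the data can differ. Single-library ratios added 0.5 CPM, or 1 read for RNA-seq. DESeq2 1.42.0, its size factors, no filter, a term for the replicate number and leaving out each library were tried as alternatives. Tables were handled with Python 3.11.15, pandas 2.3.3 and numpy 2.4.6.

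The members and lists were chosen with earlier results of these data known. Named were the 3 members of highest CPM in each role, up to 8 of largest change per direction and contrast (at least 10 CPM, called, same sign in both replicate numbers), the 6 highest and 6 lowest Slc25 genes and the 8 lowest other members in the membrane contrast, the genes named after a carrier, and up to 8 site pairs of lowest p with at least 50 reads. Slc3a2, Slc1a5 and Slc24a6, and the examples of the puromycin pairs, were chosen after their values were seen.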

Additional observations from a re-analysis of the deposited data

Results flagged for a closer look

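The fraction difference of 34 members was larger in polysomes than in monosomes of proliferating cells by a test of that difference (edgeR, adjusted p under 0.05), which is why they are listed here. Slc35e1 led with 4.58 on the log2 scale, followed by Slc7a5 with 4.29, Slc38a10 with 3.96, Slc12a4 with 3.91, Slc35d2 with 3.84, Slc12a9 with 3.55, Slc35a1 with 3.40 and Slc11a2 with 3.39.

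Slc38a10 had 2.06 and 2.13 CPM in cytosol polysomes and 11.7 and 12.6 in cytosol monosomes, against 56.4 and 42.2 in membrane polysomes and 28.5 and 20.9 in membrane monosomes. Slc11a2 had 5.16 and 7.88 CPM in cytosol polysomes and 43.0 and 40.9 in cytosol monosomes, while its membrane libraries ranged from 54.4 to 71.2. In both genes the cytosol polysomes were the lowest of the 4 groups. The Slc7a5 call was lost without either P cytosol polysome library, either P membrane monosome library or P cytosol monosome replicate 1 (3.93 to 4.67 over all 8 libraries left out in turn). The Slc12a9 call was lost without any of its libraries but P cytosol monosome replicate 1 (2.89 to 3.98). Slc35a1 was not called without P membrane polysome replicate 2 (2.74) or P membrane monosome replicate 1 (2.85).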

How the results depend on the processing

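Between membrane and cytosol 101 members were called in P cells, and 85 to 94 with 1 library left out, against 74 and 56 to 64 in D cells; monosomes alone, a split by gradient part chosen after seeing the data, gave 30 and 6. Leaving out 1 library gave 28 to 39 calls between polysomes and monosomes in P cytosol (50 with all), 23 to 30 in D cytosol (39), 0 to 1 in P membrane (1), 0 to 1 in D membrane (5), 12 to 30 for the fraction difference by gradient part (34), 45 to 54 between states (55), 0 for fraction by state (0), 0 to 130 for the puromycin fraction term (114), 0 to 94 for its change with minutes (0), and 0, 0 and 0 to 1 for the 3 site contrasts. DESeq2 called 3 members in P membrane and 65 for the change with minutes; exposed against unexposed pairs gave 106. Polysomes alone gave 19 calls between states and monosomes alone 31.

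With the replicate number as a block the counts were 113 for membrane against cytosol in D cells and 10 for fraction by state. Polysomes against monosomes gave 86, 76, 52 and 47 (P and D cytosol, P and D membrane). There were 81 by gradient part, 90 between states and 2, 1 and 7 for the site contrasts. Calls over all genes differed between settings too. Over the settings tried, not the block alone, they reached 1880 higher and 698 lower for P membrane polysomes against monosomes. In P cytosol they reached 2648 and 2712, in D cytosol 2753 and 2405, and in D membrane 2268 and 1047. For membrane against cytosol in D cells they reached 2803 and 2047, by gradient part 2018 and 1162, and between states 2772 and 3411. For site use they reached 224 and 53 in P membrane against cytosol, 69 and 6 in D, and 327 and 132 between states. For fraction by state they reached 81 higher and 433 lower. The labels do not pair the samples; same-numbered libraries deviated together (r 0.599 to 0.823 over 6673 genes in 12 pairs of groups), a hint from the data and not from the design. Slc30a9 (-0.03) turned to 0.00 with the block and to 0.16 and 0.17 without P cytosol polysome or monosome replicate 1 (-0.35 to 0.17 over all 8 libraries). Slc35c2 (0.19) turned to -0.01 with DESeq2 or its size factors, -0.06 without a filter, and -0.14 and -0.06 without P membrane polysome or monosome replicate 2 (-0.14 to 0.40 over all 8). The site shift of Slc38a2 in D cells (1.07) turned to -0.01 without D cytosol monosome replicate 1 (up to 1.72 without another). The cause of these changes was not tested. Groups of 2 libraries limit the precision throughout.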
